A study of Mus musculus with 4 samples.

Results

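The 7 genes described here, Xbp1, Prdm1, Sdc1, Jchain, Tnfrsf17, Fkbp11 and Derl3, belong to the programme by which B cells become antibody-secreting plasma cells. They were chosen by name, and each was read through the probe sets whose only gene symbol in the platform's annotation is that gene. Each had 1 such probe set, so that 7 of 34760 probe sets and 7 of 19937 genes with a probe set of 1 symbol are described. Expression was measured in pro-B cells (B220+cKit+) isolated from the marrow of C57BL/6 mice with no transgene, on 4 arrays of the Affymetrix Mouse Gene 1.0 ST type, replicates 1 to 4. The labels give these mice as wild type and name no treatment or age. The arrays form a single group, so there is no contrast between conditions, and the questions are whether these genes were detected and how far they differed from array to array.

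Plasma cells are the terminal stage of the B lineage, whereas pro-B cells are among its first stages and do not yet carry a B-cell receptor. Prdm1, also known as Blimp-1, is a repressor that shuts down the B-cell identity programme, and Xbp1 is the transcription factor that expands the endoplasmic reticulum (ER) for secretion. Antibody chains are then folded in the ER, misfolded chains are moved out of it and degraded, and the J chain links antibody units into IgM and IgA polymers.

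Values are log2 intensities, and the level of one probe set was not set against that of another. The arrays had medians of 7.31 to 7.35 and correlated with each other at Pearson r of 0.986 to 0.989 across probe sets. On the array of replicate 3 the sex-linked genes stood apart, with Xist at 5.48 against 13.04 to 13.17 on the others and Eif2s3y at 10.05 against 4.62 to 5.17. Low Xist with high Eif2s3y is the pattern of male cells, and the other arrays had that of female cells. The cells of replicate 3 thus came from a different mouse or mice than those of the other arrays. The labels give no batch and do not say whether the replicates were separate mice or sorts, so the p-values below measure only the spread between these arrays, which may in part be technical. Each array had a background line, set at the 95th percentile of its 1244 probe sets for sensory receptor genes (olfactory, vomeronasal, taste), assumed to be unused in lymphocytes. Only probe sets that exceeded the line on each of the 4 arrays were called above background. All 7 plasma cell and secretory genes were above background, where 63.5% of all probe sets with 1 symbol were. All 7 also passed a one-sided limma test of the margin over the line, with Benjamini-Hochberg adjustment over all probe sets, which called 63.2% of the probe sets with 1 symbol. Some markers of other cells passed the line too, 7 of 8 T and NK cell markers and 3 of 6 stroma markers. Margins were 0.29 (Cd8a) to 0.95 (Klrb1c) in the first list, apart from Nkg7 at 6.29, and 0.61 (Cdh5) to 1.19 (Col1a1) in the second. All 10 neutrophil and monocyte markers passed, with larger margins of 3.91 (Ltf) to 7.24 (Mpo). All 6 erythroid markers passed, with margins of up to 7.16 (Car1). Prdm1, Tnfrsf17 and Fkbp11 had margins of 1.04, 0.98 and 0.23. Xbp1, Jchain, Derl3 and Sdc1 had 5.50, 5.08, 2.24 and 1.79. Neither passing the line nor a large margin thus by itself places the RNA of the 7 genes in pro-B cells.

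The 7 genes did not all vary together over the arrays. Prdm1, Jchain, Tnfrsf17, Fkbp11 and Derl3 had their lowest value on the array of replicate 1, and Xbp1 and Sdc1 had their highest value there. Thus 5 of the 7 genes were lowest on that array, compared with 28.9% of all probe sets with 1 symbol above background, and 2 were highest there, compared with 33.2%. These directions were the same as deposited and after quantile, cyclic loess and median scaling, which moved no array median by more than 0.026. In sorted populations measured as a whole, fewer cells of a type and less RNA per cell cannot be told apart.

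**Figure D1:**
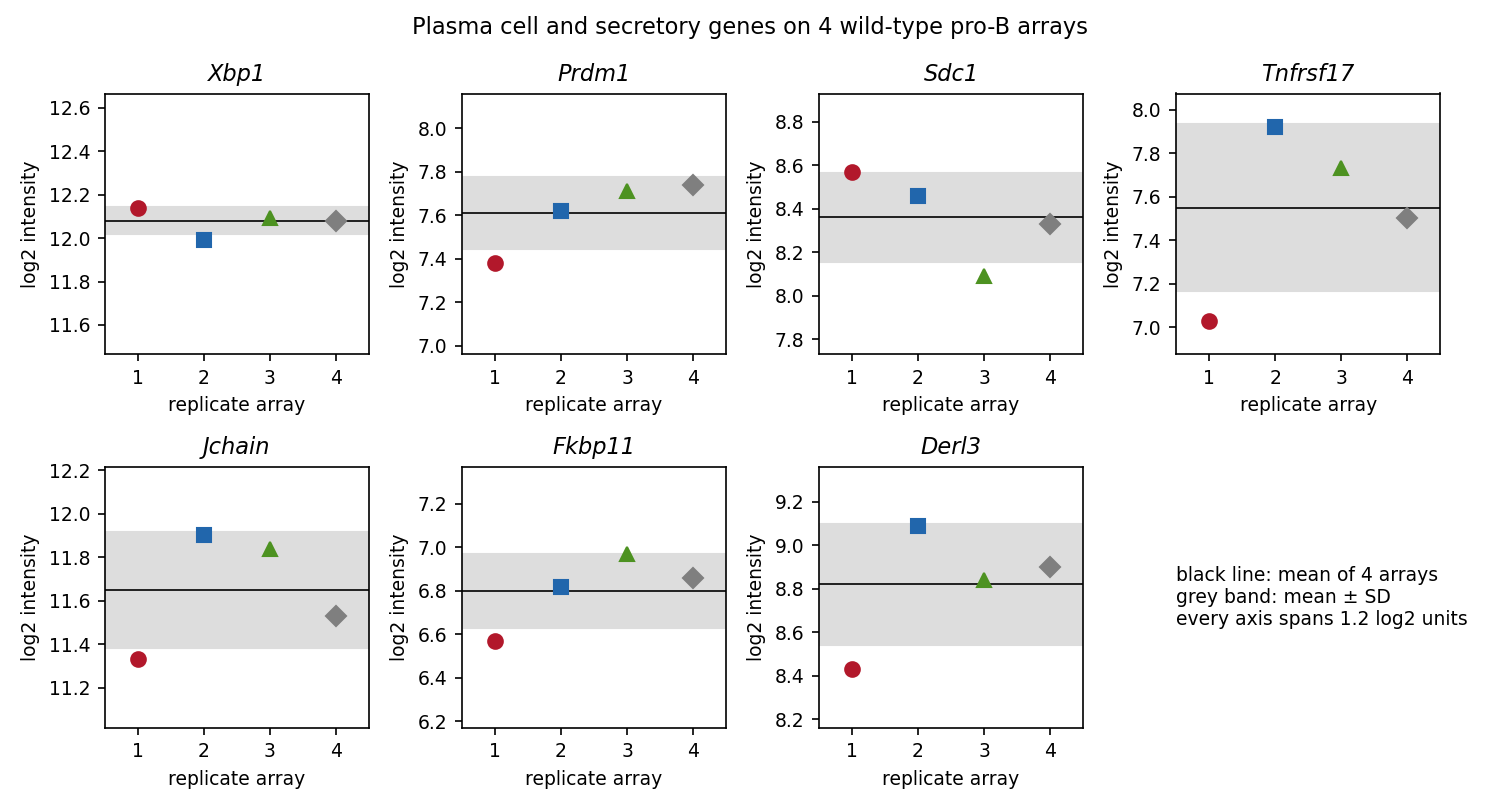
Log2 intensity (vertical axis) of the 7 plasma cell and secretory genes on each of the 4 arrays, 1 panel a gene, with a point for each array, a black line at the mean and a grey band for the mean ± SD, every vertical axis spanning the same log2 distance. Xbp1 sits within 0.15 over the arrays, and Tnfrsf17 spans 0.89 with its lowest point on the array of replicate 1.

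Xbp1 encodes the factor whose mRNA is spliced by the ER stress sensor Ire1. Its log2 values were 12.14, 11.99, 12.09 and 12.08 on the arrays of replicates 1 to 4. The values lay close together, with the array of replicate 1 highest and that of replicate 2 lowest. The SD was 0.063 (n = 4), and 15.8% of the probe sets with 1 symbol above background had a smaller one. Its margin over the background line was 5.50 with a standard error (SE) of 0.065 (limma, Benjamini-Hochberg adjusted p = 2.65e-09). The single probe set does not separate the spliced from the unspliced mRNA.

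Prdm1 had log2 values of 7.38, 7.62, 7.71 and 7.74. The array of replicate 1 was the low one, and the other 3 lay within a narrow range. The highest value was 1.29-fold the lowest, and the SD was 0.17 (n = 4). Its margin over the background line was 1.04 (SE 0.076, limma, Benjamini-Hochberg adjusted p = 8.42e-06). With the sensory receptors' 99th percentile as the line the margin was 0.41 (limma, adjusted p = 0.00174), and with the array median it was 0.29 (adjusted p = 0.0152).

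Among other regulators of plasma cell formation all 12 genes were above background, where 63.5% of all probe sets with 1 symbol were. On the array of replicate 1, 9 of them were highest, against 33.2% of all probe sets with 1 symbol above background. In 11 of the 12 that array exceeded the mean of the others, by as little as 0.00 for Il6st and 0.01 for Prdm11. Over all probe sets with 1 symbol above background that difference had a median of 0.010, and the share above the mean was not counted. Irf4, which acts with Prdm1 in plasma cells, had log2 values of 10.06, 9.54, 9.41 and 9.06, and Pou2af1, a coactivator of octamer-binding factors, had 11.13, 10.39, 10.38 and 9.97. Both were highest on the array of replicate 1 and lowest on that of replicate 4. The exception was Ell2, an elongation factor that favours the secreted form of the immunoglobulin heavy chain, with 8.68, 9.57, 9.34 and 9.42. Ell2 and Prdm1 thus had their low value on the same array, while Irf4 and Pou2af1 had their high value there.

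Genes of the B-cell programme that is held down in plasma cells were detected in 8 of 8 cases with a probe set. The share above background was 63.5% over all probe sets with 1 symbol. Of the 8, 6 were highest on the array of replicate 1, against 33.2% of all probe sets with 1 symbol above background. Pax5, the B-lineage commitment factor and a target of Prdm1 repression, had log2 values of 11.49, 10.64, 10.90 and 10.17. Bach2, a repressor that delays plasma cell formation, had 11.06, 10.59, 10.31 and 9.86. For both genes the array of replicate 1 was high and that of replicate 4 low. The exceptions were Myc, a driver of growth that Prdm1 represses, with 11.45, 11.74, 11.60 and 11.81, and Bcl6, the repressor of the germinal centre, with 8.74, 8.52, 8.94 and 8.83. Myc was lowest on the array of replicate 1, as Prdm1 was. The median over the 8 genes of the value on the array of replicate 1 minus the mean of the others was 0.75. It was 0.010 over all probe sets with 1 symbol above background.

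Of the surface proteins, Sdc1 is syndecan-1 (CD138), the proteoglycan used to recognise plasma cells, and had log2 values of 8.57, 8.46, 8.09 and 8.33. The low array was that of replicate 3, the array that stood apart in sex-linked RNA, and the high one was that of replicate 1. The highest value was 1.39-fold the lowest, with an SD of 0.20 (n = 4). Its margin over the line was 1.79 (SE 0.089, limma, Benjamini-Hochberg adjusted p = 9.85e-07), and it was 1.16 and 1.03 with the higher lines given for Prdm1. Whether the difference on the array of replicate 3 goes with the difference in sex-linked RNA was not tested.

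Tnfrsf17 encodes BCMA, the receptor for the survival factors April and Baff on plasma cells. Its log2 values were 7.03, 7.92, 7.73 and 7.50, the widest range of the 7 genes. The array of replicate 1 was lowest and that of replicate 2 highest, by 1.85-fold. The SD was 0.38 (n = 4), and 97.5% of the probe sets with 1 symbol above background had a smaller one. Its margin was 0.98 (SE 0.13, limma, Benjamini-Hochberg adjusted p = 0.000305). With the 99th percentile as the line the margin was 0.34 (limma, adjusted p = 0.0464), and with the array median it was 0.22 (adjusted p = 0.201).

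Related receptors that bind Baff varied in other ways. Tnfrsf13b, which encodes Taci, had log2 values of 9.40, 9.26, 9.36 and 9.27 and an SD of 0.067 (n = 4). Tnfrsf13c, which encodes the Baff receptor of naive B cells, had 11.60, 11.08, 10.97 and 10.39 and an SD of 0.49 (n = 4). Taci was thus nearly even over the arrays, and the Baff receptor was highest on the array where Tnfrsf17 was lowest. All 10 surface and survival genes with a probe set were above background, where 63.5% of all probe sets with 1 symbol were. On the array of replicate 1, 6 of them were highest, against 33.2% of all probe sets with 1 symbol above background. In 9 of the 10 that array exceeded the mean of the others, a difference with a median of 0.010 over all those probe sets. Among the 9 was Cxcr4, the receptor that retains plasma cells in the marrow, with 11.70, 11.16, 11.25 and 11.24.

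Jchain encodes the small secreted protein that joins IgM and IgA into polymers. Its log2 values were 11.33, 11.90, 11.84 and 11.53. The arrays of replicates 1 and 4 were the low ones, and those of replicates 2 and 3 the high ones, with 1.49-fold between the extremes. The SD was 0.27 (n = 4), larger than that of 92.8% of the probe sets with 1 symbol above background. Its margin over the line was 5.08 (SE 0.10, limma, Benjamini-Hochberg adjusted p = 1.06e-08).

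Probe sets of the antibody chains differed more from array to array. Those annotated to Igha, the IgA heavy chain, had log2 values of 11.36, 12.98, 12.79 and 12.19 for probe set 10403034 and 11.06, 12.41, 12.26 and 11.32 for probe set 10403063. Both had the order of Jchain, with the arrays of replicates 1 and 4 below those of replicates 2 and 3. Ighm, the IgM heavy chain, had 3 probe sets that disagreed. Probe set 10403069 had 8.65, 11.61, 11.24 and 10.28 and probe set 10402864 had 10.68, 11.56, 11.34 and 11.28, whereas probe set 10402991 had 11.13, 11.07, 10.50 and 10.72. The array of replicate 1 was thus lowest for the first pair and highest for the last, and since sequence of the heavy-chain locus is shared between genes and rearranged, the gene behind each of these probe sets is uncertain. Mzb1, an ER protein that helps antibody assembly, was highest on the array where Jchain was lowest, with 10.18, 9.60, 9.63 and 9.29.

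**Figure D2:**
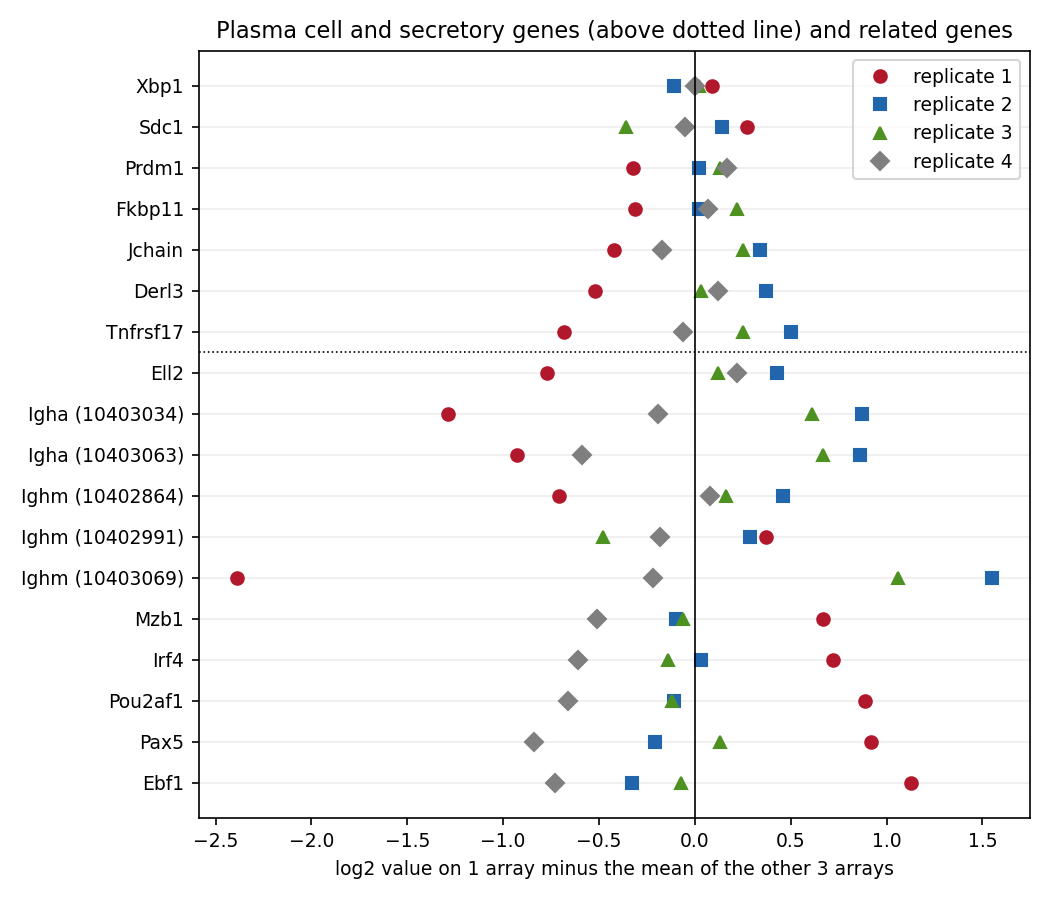
Value on each of the 4 arrays minus the mean of the other 3 (log2 scale), for the 7 plasma cell and secretory genes and named related genes. On the array of replicate 1 Tnfrsf17 lies at -0.68, Derl3 at -0.52 and Jchain at -0.42, and Sdc1 lies at 0.27.

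Fkbp11 and Derl3 act in the ER. Fkbp11 is a peptidyl-prolyl isomerase of secretory cells, and Derl3 is a derlin, a membrane protein of the route by which misfolded chains leave the ER for degradation. Their promoters are shown because both held an element of the unfolded protein response, and none of the other 5 genes did. The sequences are from RefSeq (GRCm38.p6), 250 bases before to 50 after an annotated start, written 5′ to 3′ on the strand of the gene, and capitals mark the matched letters, in the ERSE without its spacer. The Derl3 window is chr10:75893148-75893447 on the plus strand and holds, read on the opposite strand, the ER stress element (ERSE) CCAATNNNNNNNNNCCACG, and the matched stretch as printed begins at position -156 from the start. The Fkbp11 window is chr15:98727578-98727877 on the minus strand and holds, on the opposite strand, the core TGACGTG of the unfolded protein response element, and the matched stretch as printed begins at base 1 after the start.
Derl3: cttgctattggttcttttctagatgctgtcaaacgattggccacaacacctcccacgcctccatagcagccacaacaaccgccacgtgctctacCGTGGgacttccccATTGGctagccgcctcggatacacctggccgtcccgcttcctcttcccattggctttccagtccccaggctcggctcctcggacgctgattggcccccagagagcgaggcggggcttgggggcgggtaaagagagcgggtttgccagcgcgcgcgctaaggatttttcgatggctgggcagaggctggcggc
Fkbp11: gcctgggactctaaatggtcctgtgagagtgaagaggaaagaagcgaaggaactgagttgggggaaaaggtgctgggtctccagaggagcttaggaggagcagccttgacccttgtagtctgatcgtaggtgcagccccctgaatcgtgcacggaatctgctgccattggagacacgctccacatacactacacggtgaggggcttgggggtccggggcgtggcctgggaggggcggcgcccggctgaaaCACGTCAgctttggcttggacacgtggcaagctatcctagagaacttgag

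Both strands of 32851 promoter windows of this length were searched. ERSE was found in 39 of them (0.119%), and the TGACGTG core in 661 (2.01%). A second Fkbp11 window in the reference held none of the searched motifs, which also comprised ERSE-II (ATTGGNCCACG, found in 0.0365% of the windows), the octamer ATTTGCAT (1.74%) and the Prdm1 core AGNGAAAG (8.63%). Among ER chaperones and folding enzymes, 8 of 18 genes with a window held ERSE, namely Hspa5, Hsp90b1, Dnajc3, Creld2, Pdia6, Calr, Canx and Ero1b. A match describes letters in a window and is not evidence that a factor binds there.

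Fkbp11 had log2 values of 6.57, 6.82, 6.97 and 6.86, against background lines of 6.53, 6.62, 6.54 and 6.59. It was above the line on every array, and on that of replicate 1 by very little. The SD was 0.17 (n = 4), and the margin was 0.23 (SE 0.078, limma, Benjamini-Hochberg adjusted p = 0.0215). The call was lost without replicate 3 (limma, adjusted p = 0.0855) and without replicate 4 (adjusted p = 0.0638). With the sensory receptors' 99th percentile as the line Fkbp11 lay below it, with a margin of -0.41. Of the other FKBP proteins of the ER with a probe set, Fkbp2, Fkbp7 and Fkbp9 were above background and Fkbp14 was not, with log2 values of 5.75, 5.88, 5.68 and 6.01. Fkbp2 had 9.02, 8.92, 9.07 and 8.87, so that its low arrays were those of replicates 2 and 4 rather than that of replicate 1.

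Derl3 had log2 values of 8.43, 9.09, 8.84 and 8.90. The array of replicate 1 was lowest, and the highest value, on that of replicate 2, was 1.58-fold above it. The SD was 0.28 (n = 4), and 93.5% of the probe sets with 1 symbol above background had a smaller one. Its margin over the line was 2.24 (SE 0.10, limma, Benjamini-Hochberg adjusted p = 5.86e-07), and it was 1.49 with the array median as the line. The other derlins, which serve the same route in most cell types, hardly differed between arrays. Derl1 had log2 values of 10.94, 10.99, 11.04 and 10.97 (SD 0.039, n = 4). Derl2 had 9.66, 9.57, 9.70 and 9.57 (SD 0.065, n = 4). A test of the difference in spread between derlins was not made.

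The wider ER machinery was detected almost completely. It comprised ER-associated degradation, chaperones and folding enzymes, the translocon with signal peptidase, and ER to Golgi transport. Of its 65 genes with a probe set 64 were above background, against 63.5% of all probe sets with 1 symbol. The exception was Kdelr3, a receptor that returns ER proteins from the Golgi, with 6.35, 6.85, 6.69 and 6.83, below the line on the array of replicate 1 alone. The median SD over the 64 genes was 0.10, and 39 of them lay under the median of all probe sets with 1 symbol above background, 0.11. On the array of replicate 1, 22 of the 64 were lowest and 18 highest. Over all probe sets with 1 symbol above background, these shares were 28.9% and 33.2%. The median difference of the 64 genes on that array from the other arrays was -0.01. Over all those probe sets it was 0.010. Hspa5, the ER chaperone BiP and a known responder of the unfolded protein response, had 12.56, 12.27, 12.30 and 12.23. Sec61a1, the channel of the translocon, had 12.52, 12.53, 12.49 and 12.57. BiP was highest on the array of replicate 1, and the channel was even over all arrays.

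The sensors and factors of the unfolded protein response were above background in 12 of 12 cases, against 63.5% of all probe sets with 1 symbol. Their median SD was 0.10. Ern1, which encodes Ire1, had log2 values of 10.81, 10.98, 10.85 and 10.99, and Atf6, the membrane-bound factor of another branch, had 10.35, 10.39, 10.43 and 10.51. Both ranged over less than Prdm1 did. Asns, the asparagine synthetase induced by Atf4, stood out within this list with 10.68, 11.90, 11.68 and 11.86. Its array of replicate 1 was the low one, as for Derl3 and Ell2, while Atf4 itself had 8.64, 8.70, 8.73 and 8.58.

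**Figure D3:**
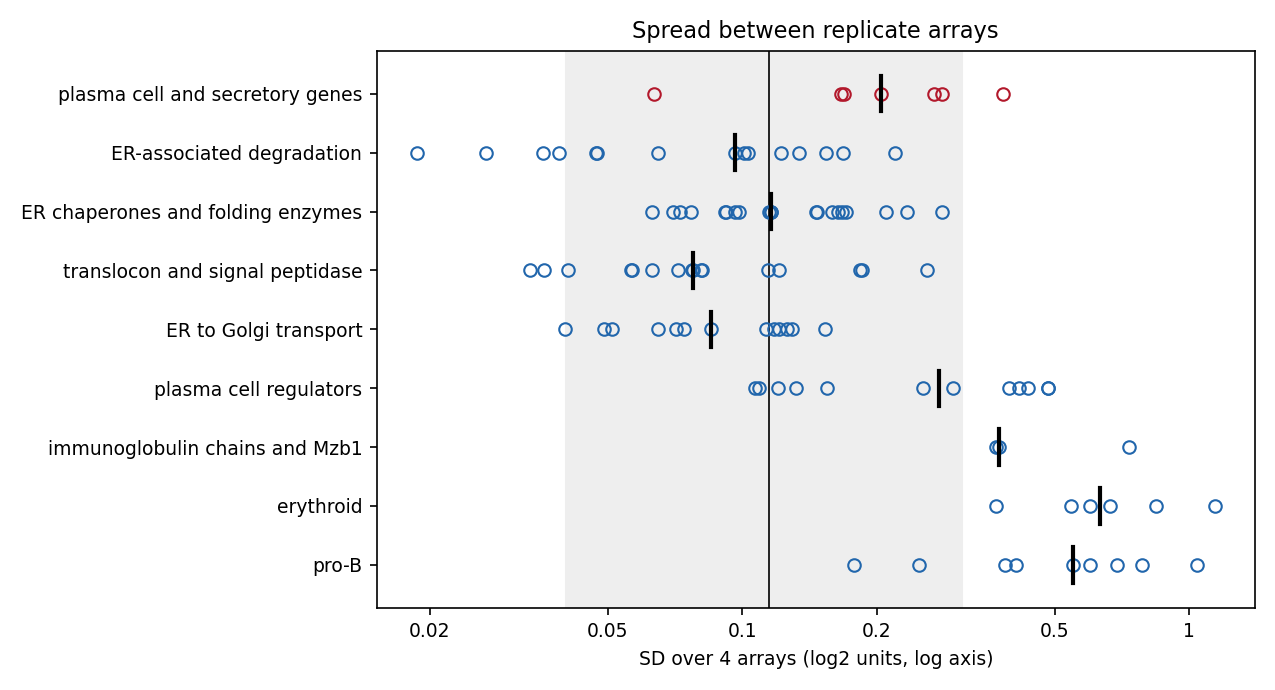
SD over the 4 arrays (log2 scale, logarithmic axis) of each gene above background, by gene list, with a bar at each list's median, a vertical line at the median of all probe sets with 1 symbol above background (0.11) and a grey band from their 5th to 95th percentile (0.040 to 0.31). The 7 plasma cell and secretory genes run from 0.06 to 0.38 with a median of 0.20, and the lists of the ER machinery have medians of 0.08 to 0.12.

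Spread over the arrays thus differed within the 7 genes. The median SD was 0.20, and 6 of the 7 genes, all but Xbp1, lay above the 0.11 of all probe sets with 1 symbol above background. Without replicate 1 the median was 0.13. In none of the 7 genes did 1 array stand apart by Dixon's ratio, a rule that 5.36% of the probe sets with 1 symbol above background met.

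Markers of the sorted cells themselves differed on the array of replicate 1. Of the 9 pro-B markers with a probe set, 7 were highest there, against 33.2% of all probe sets with 1 symbol above background. Pax5 and Ebf1 are in this list and also in that of the B-cell programme above, so the lists are not separate observations. The list's mean log2 value was 10.84, 9.93, 10.40 and 9.90 over the arrays. Compared with the mean of the others, 8 of the 9 were higher on the array of replicate 1. The exception was Kit, the receptor of the sorting gate, which was lowest there with 10.46, 10.83, 10.81 and 10.80. Among markers of other cells the array of replicate 1 differed most for the erythroid list. All 6 erythroid markers with a probe set were lowest on it, against 28.9% of all probe sets with 1 symbol above background. Their list means were 8.67, 10.14, 10.02 and 9.96. Plasmacytoid dendritic cells, which also express Xbp1 and carry B220, had list means of 9.42, 9.40, 9.58 and 9.21. All 7 of their markers were above background, where 63.5% of all probe sets with 1 symbol were. Neutrophil and monocyte markers had list means of 12.33, 12.06, 12.57 and 12.55, with 10 of 10 above background, against the same 63.5%. Of the mast cell and basophil markers 4 of 6 passed, near that share, with list means of 8.82, 8.36, 8.92 and 8.51. Fcer1a and Ms4a2 were above the line on 3 of 4 arrays, all but that of replicate 2. The list means of both these myeloid groups were lowest on the array of replicate 2. The 7 T and NK cell markers above background, all but Gzmb, differed on each array from the mean of the others by a median of -0.12, -0.04, 0.07 and 0.02. Over all probe sets with 1 symbol above background these medians were 0.010, -0.002, 0.008 and -0.015. On the array of replicate 1, 6 of the 7 markers were lower, and Klrb1c was higher by 1.05. Gzmb, also higher there by 1.10, passed the line on that array alone. Of the stroma markers 3 of 6 passed, against 63.5% of all probe sets with 1 symbol. The part of these cells in the differences of the 7 genes was not tested.

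**Figure D4:**
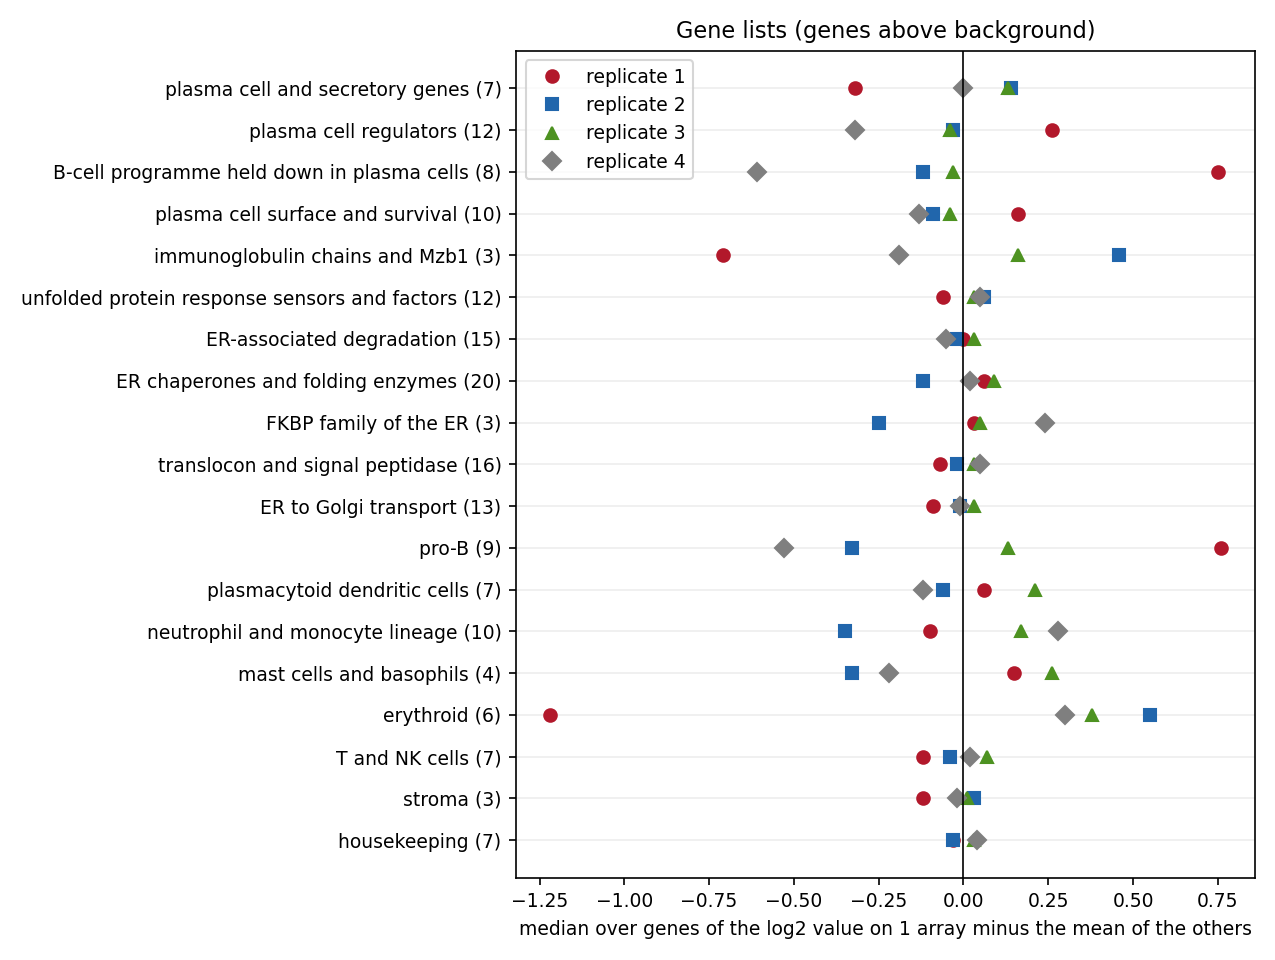
Median over the genes of each list of the value on 1 array minus the mean of the other 3 (log2 scale), for the 4 arrays. On the array of replicate 1 the plasma cell and secretory genes lie at -0.32 and the erythroid markers at -1.22, whereas pro-B markers lie at 0.76 and plasma cell regulators at 0.26. The median over all probe sets with 1 symbol above background, not drawn, was 0.010 on that array.

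Within the 7 genes the most alike profiles over the arrays were those of Prdm1 and Fkbp11, whose 4 deviations from their own means had a root mean square difference of 0.052 on the log2 scale. Jchain and Tnfrsf17 followed at 0.12, Tnfrsf17 and Derl3 at 0.13, and Jchain and Derl3 at 0.14. The least alike were Sdc1 and Tnfrsf17 at 0.45. The low array of replicate 1 was thus shared by the alike pairs, and Sdc1 was high on it.

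Over all probe sets with 1 symbol above background, the profile nearest to that of Prdm1 was Nt5c2, at a root mean square difference of 0.0069, with Card14 and Timm10 next. For Fkbp11 they were Micos13 at 0.0064, Psma3 and Strap. For Derl3 they were Pcbd1 at 0.0077, Mfhas1 and Igsf3, and for Sdc1 Dnah3 at 0.017, Myo9a and Id1. Nearest to Jchain were Pccb at 0.021, 2010204K13Rik and Snora21, and nearest to Tnfrsf17 were Rangrf at 0.032, Tom1l1 and Cox6b2. Within 0.05 lay 229 probe sets for Prdm1 and 176 for Fkbp11 (SD 0.17 each), 9 for Jchain (SD 0.27) and 4 for Tnfrsf17 (SD 0.38). The median SD of all these probe sets was 0.11, so a fixed distance tends to hold fewer of them for a gene of larger SD. The 229 were all nearer to Prdm1 than Fkbp11 was, at 0.052. Such likeness rests on 4 arrays that share their background and scaling. No gene of the lists above was among the 3 nearest profiles named for each gene. The wider sets within 0.05 were only counted and can hold listed genes. Nkg7 of the T and NK cell list, with 12.64, 12.89, 12.93 and 12.99, had the order of Prdm1 over the arrays.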

How the data were processed

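RNA of 4 pro-B samples was hybridized to Affymetrix Mouse Gene 1.0 ST arrays. The deposited values are log2 intensities per probe set, which the authors made by RMA background correction and normalization. Which arrays were normalized together is not given in the sources used here. RMA brings the arrays to a common distribution, so that a difference is relative to the whole array. The number of arrays limits the precision.

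Of 34760 probe sets 21640 had 1 gene symbol in the platform's annotation, 1321 several and 11799 none listed. Of the first, 21553 were found in RefSeq's gene table through their identifier, and 0 symbols changed. Several probe sets of a gene were represented by the one with the highest mean. The 7 genes, the gene lists and the tests were chosen with earlier results of these data known. The plan was to name the 7, the first 4 of each related list, and genes below background or apart on 1 array. It also took the 3 nearest profiles of each of the 7 with an SD above the median. Not all of the first 4 of each list were named, for example Zbtb20 and Ikzf3 among the regulators. Other genes named, such as Pou2af1, were chosen after their values were seen.

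By the background rule 45 of the 1244 sensory receptor probe sets themselves passed. The margin over the line was tested by limma, one-sided, with Benjamini-Hochberg adjustment over all probe sets and a threshold of 0.05. SDs, differences between arrays and likeness are descriptions with no test. The limma step was tested on simulated data. Alternatives were other lines, other scalings, the range in place of the SD and leaving out each array. Computation used limma 3.58.1 in R 4.3.3, and numpy 2.4.6 and pandas 2.3.3 in Python 3.11.15. No comparison between groups was made.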

Additional observations from a re-analysis of the deposited data

Results flagged for a closer look

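Of 123 probe sets of the 7 genes and the related lists above background, 4 (3.25%) had 1 array far from the others by Dixon's ratio, the gap to the nearest array over the whole range, at its 95% critical value, against 5.36% of all probe sets with 1 symbol above background. Chance marks about 1 in 20 groups, and none of the 4 was one of the 7 plasma cell and secretory genes. Il6ra, the interleukin-6 receptor, had a ratio of 0.87, with 11.19 on the array of replicate 1 and a mean of 10.88 on the others. Edem1, a lectin of ER-associated degradation, had a ratio of 0.87, with 11.89 on the same array and a mean of 11.69 on the others. Cxcr4, the chemokine receptor, had a ratio of 0.84, with 11.70 there and a mean of 11.22 on the others. Il21r, the interleukin-21 receptor, had a ratio of 0.88, with 8.17 on the array of replicate 4 and a mean of 8.68 on the others.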

How the results depend on the processing

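Of 129 values recomputed for 15 results, 119 kept their direction, their side of the threshold or their size. A count was taken as kept if it changed by no more than 1.5-fold. The fall from 7 to 5 genes given next is therefore among the 119. The count of genes above background was 7, and 5 with the 99th percentile or the array median as the line, under which Tnfrsf17 and Fkbp11 dropped out. Against the array median the margin of Tnfrsf17 was 0.22 and that of Fkbp11 -0.53, and against the 99th percentile that of Fkbp11 was -0.41. Leaving out 1 array in turn gave Fkbp11 margins of 0.16 to 0.29. The median spread was 0.47 as a range, and 0.13 to 0.25 as an SD with 1 array left out, against 0.20. The median difference on the array of replicate 4 was 0.00, and it was -0.02 after quantile normalization, -0.01 after cyclic loess and -0.04 to 0.09 with 1 other array left out. The causes were not tested. The count of genes lowest on the array of replicate 1 was 5 under each scaling and each array left out that was run. No paired analysis was possible because the arrays form 1 group. With the lower lines run, the 90th percentile and the vomeronasal and taste receptors alone, the margin of Fkbp11 was 0.60 and 0.55. Signal near the background line limits what can be said of Fkbp11 most, and also of Tnfrsf17 and Prdm1, whose margins were 0.34 and 0.41 against the 99th percentile.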
